A study of Mus musculus with 6 samples.

Results

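F-box proteins are the substrate receptors of SCF ubiquitin ligases, and 75 mouse F-box genes were followed here out of 23420 gene symbols counted by RNA sequencing in mouse embryonic stem (ES) cells. The genes were chosen by symbol: every row that began with Fbxo, Fbxl or Fbxw and a number was taken, and Fbxo15 was left out. The 75 comprised 21 Fbxw genes, whose products carry WD40 repeats, 18 Fbxl genes, whose products carry leucine-rich repeats, and 36 Fbxo genes, whose products carry other domains or none that is named. The ES cells had been stably transduced with lentivirus and fell into 2 groups of 3 libraries: cells that expressed KBP(KK/RR), in which lysines of the KIF1-binding protein KBP are replaced by arginine, and cells that expressed wild-type KBP. KBP is known as a protein that an SCF ligase marks for degradation in mouse ES cells. No other treatment, strain or age is given for the groups, and nothing in the labels says that the 3 libraries of a group came from separate cultures, so the p-values measure only the spread between these libraries, which may be technical.

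An SCF ligase is built on the cullin CUL1, which holds the RING protein RBX1 at one end and the adaptor SKP1 at the other. SKP1 docks the F-box of a receptor, and the receptor's remaining domains bind the substrate, so the set of receptors in a cell sets which proteins the ligase can reach. In ES cells and other dividing cells these receptors are best known for the turnover of cell cycle regulators and transcription factors.

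The library totals were 29863560, 24300832 and 29746764 counts for KBP(KK/RR) replicates 4, 5 and 6, and 26059701, 32160411 and 24131743 counts for wild-type KBP replicates 1, 2 and 3. Libraries of the groups parted along the main axis of variation (31.1% of the variance), and wild-type KBP replicate 3 stood apart along the next (20.8%). The 9 ES cell markers, Pou5f1 among them, summed to 6444 to 6721 CPM (counts scaled to library size) in KBP(KK/RR) libraries and to 6545 to 6644 CPM in wild-type KBP libraries. Single markers differed in both directions: without overlap of the groups, Nanog and Dppa5a were higher in KBP(KK/RR) cells and Esrrb and Klf4 lower. These make up 44.4% of the list, against 22.4% of all genes, and 0 of the 9 passed the test described below. Markers of fibroblasts or feeder cells summed to 24.2 to 24.9 CPM in KBP(KK/RR) libraries and to 23.3 to 26.1 CPM in wild-type KBP libraries. Groups were compared with edgeR's quasi-likelihood test, with Benjamini-Hochberg adjustment over all genes and an adjusted p under 0.05 as the threshold. The row for the KBP gene itself averaged 56.6 ± 2.88 CPM in KBP(KK/RR) cells and 48.3 ± 1.30 CPM in wild-type KBP cells (SD, n = 3 each). Its log2 fold change was 0.23 (adjusted p = 0.0133), and whether transgene reads fall in that row is not stated.

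The F-box genes included well expressed ones and ones with no count, and sequences from both ends are printed here because their start sites differed in CG content. The first 3 are the 250 bases upstream of an annotated start of the highest gene of each family: Fbxw9 (chr8:85059869-85060118, plus strand), Fbxl19 (chr7:127746028-127746277, plus strand) and Fbxo22 (chr9:55208685-55208934, plus strand). The Fbxl19 window precedes one of that gene's RefSeq starts and lies inside its annotated span, which begins at position 127743887. The sequences are RefSeq's on GRCm38.p6, read 5′ to 3′, and the capitals mark each CG pair, the base pair step in which mammalian DNA is methylated.
Fbxw9: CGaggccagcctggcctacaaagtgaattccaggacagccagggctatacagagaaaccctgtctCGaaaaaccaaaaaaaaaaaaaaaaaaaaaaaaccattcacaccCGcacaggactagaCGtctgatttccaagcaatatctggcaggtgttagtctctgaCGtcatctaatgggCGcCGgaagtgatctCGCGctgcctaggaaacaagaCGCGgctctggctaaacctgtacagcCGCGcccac
Fbxl19: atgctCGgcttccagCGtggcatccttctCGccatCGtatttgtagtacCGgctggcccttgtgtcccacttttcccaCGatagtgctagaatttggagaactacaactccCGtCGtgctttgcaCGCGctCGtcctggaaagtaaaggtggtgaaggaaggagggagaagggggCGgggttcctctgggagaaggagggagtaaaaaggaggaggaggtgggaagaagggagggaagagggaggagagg
Fbxo22: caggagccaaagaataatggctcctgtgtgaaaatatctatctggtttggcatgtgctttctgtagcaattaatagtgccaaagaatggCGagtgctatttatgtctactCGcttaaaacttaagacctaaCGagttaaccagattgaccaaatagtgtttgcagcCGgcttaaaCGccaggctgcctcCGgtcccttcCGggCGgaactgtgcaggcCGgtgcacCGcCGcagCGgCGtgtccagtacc

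The next 3 windows, on the same build and marked in the same way, belong to genes of an Fbxw cluster on chromosome 9 that had no count in any library: Fbxw14 (chr9:109287677-109287926, minus strand), Fbxw28 (chr9:109339660-109339909, minus strand) and Fbxw19 (chr9:109495855-109496104, minus strand). Among the cluster windows, Fbxw28 was the closest to Fbxw14 in sequence and Fbxw19 the farthest, which is why these were chosen. The 3 windows hold almost no CG pair.
Fbxw14: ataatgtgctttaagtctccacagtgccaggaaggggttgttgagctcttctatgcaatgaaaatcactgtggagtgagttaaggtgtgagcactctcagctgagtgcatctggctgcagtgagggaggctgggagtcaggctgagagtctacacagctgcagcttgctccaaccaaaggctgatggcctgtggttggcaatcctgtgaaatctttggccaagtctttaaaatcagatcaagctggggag
Fbxw28: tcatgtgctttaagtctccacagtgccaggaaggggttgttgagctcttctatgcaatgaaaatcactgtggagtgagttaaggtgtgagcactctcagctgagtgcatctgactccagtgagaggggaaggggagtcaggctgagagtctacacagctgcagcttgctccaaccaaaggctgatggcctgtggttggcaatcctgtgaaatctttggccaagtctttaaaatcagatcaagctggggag
Fbxw19: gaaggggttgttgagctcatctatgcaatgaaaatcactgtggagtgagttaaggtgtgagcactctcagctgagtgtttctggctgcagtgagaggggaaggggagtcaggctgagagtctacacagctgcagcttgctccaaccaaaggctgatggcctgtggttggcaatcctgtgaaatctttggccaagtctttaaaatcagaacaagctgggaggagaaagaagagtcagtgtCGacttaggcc

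The windows of Fbxw9, Fbxl19 and Fbxo22 held 13, 12 and 13 CG pairs, while those of Fbxw14, Fbxw28 and Fbxw19 held 0, 0 and 1. The GC content of the windows did not separate them in the same way, since it was equal for Fbxw9 and Fbxw14. Fbxw14 and Fbxw28 were identical at 96.0% of alignment positions, with gaps counted as differences, and Fbxw14 and Fbxw19 at 75.5%. The Fbxw19 window starts part-way into the sequence of the Fbxw14 window and runs past its end, so part of that shortfall is unpaired ends. The pairs among Fbxw9, Fbxl19 and Fbxo22 were identical at 46.0% to 49.0%.

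Levels of different genes were compared per length, as CPM per kb of the gene's longest annotated transcript. Of the 75 genes, 60 had enough counts to be tested (9 Fbxw, 17 Fbxl and 34 Fbxo), and their levels spread over a 431-fold range. There were 22 genes with at least 10 CPM per kb, and 9 with less than 1. The 10 highest genes carried 52% of the summed level of the tested receptors. Along the order of levels, 51 of 59 pairs of neighbouring genes overlapped in the range of their 6 libraries, so the rank of most single genes was not resolved.

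Fbxo22, a receptor known for the histone demethylase KDM4A, had the highest level, at 54.7 ± 1.59 CPM per kb (mean and SD over all 6 libraries), and its libraries lay above all those of the next gene. That gene was Fbxo5 at 39.0 ± 1.07 CPM per kb, also called Emi1, which inhibits the anaphase-promoting complex. Fbxl19, which carries a CXXC zinc finger that binds unmethylated CG-rich DNA, followed at 35.9 ± 1.64 CPM per kb. Fbxw9 was next at 32.3 ± 1.12 CPM per kb and Fbxl6 at 29.2 ± 2.78 CPM per kb.

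A tight group came next in that order. Fbxw8, a receptor known to assemble with the cullin CUL7, had 27.0 ± 1.27 CPM per kb. Fbxo38, known for the T cell receptor PD-1 as a substrate, had 25.5 ± 0.95 CPM per kb. Fbxw11, one of the pair of beta-TrCP proteins that bind phosphorylated beta-catenin and I-kappa-B, had 25.2 ± 0.50 CPM per kb. Fbxl14, known for the transcription factor SNAI1 as a substrate, had 24.9 ± 0.72 CPM per kb. Neighbours among these 4 genes overlapped in range, and the next gene, Fbxo21 at 17.2 ± 0.24 CPM per kb, lay below all of them.

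Several of the best known receptors were spread further down the order. Fbxl5 and Fbxw7 were still among the 22 genes with at least 10 CPM per kb. Fbxl5, whose product senses iron and targets the iron regulatory protein IRP2, had 15.6 ± 0.64 CPM per kb. Fbxw7, the receptor for cyclin E, MYC and Notch, had 13.4 ± 0.58 CPM per kb. Fbxo31, known for cyclin D1, had 9.36 ± 0.66 CPM per kb and Fbxo11, known for BCL6, had 7.57 ± 0.55 CPM per kb. Lower still were Fbxl20 at 3.82 ± 0.16 CPM per kb, Fbxo7, a gene of inherited parkinsonism, at 3.01 ± 0.14 CPM per kb, Fbxl2 at 1.6 ± 0.08 CPM per kb and Fbxo4 at 1.23 ± 0.20 CPM per kb.

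Some genes at the low end are best known from other tissues. Fbxo41, known from neurons, had 0.42 ± 0.08 CPM per kb, and Fbxo32, the atrophy gene atrogin-1 of skeletal muscle, had 0.36 ± 0.04 CPM per kb. Fbxo43, the meiotic inhibitor Emi2 and a relative of Fbxo5, had 0.19 ± 0.03 CPM per kb. Fbxl21 had 0.13 ± 0.03 CPM per kb, as did Fbxl22 at 0.13 ± 0.03 CPM per kb. The ranges of the relatives Fbxo5 and Fbxo43 lay far apart.

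**Figure D1:**
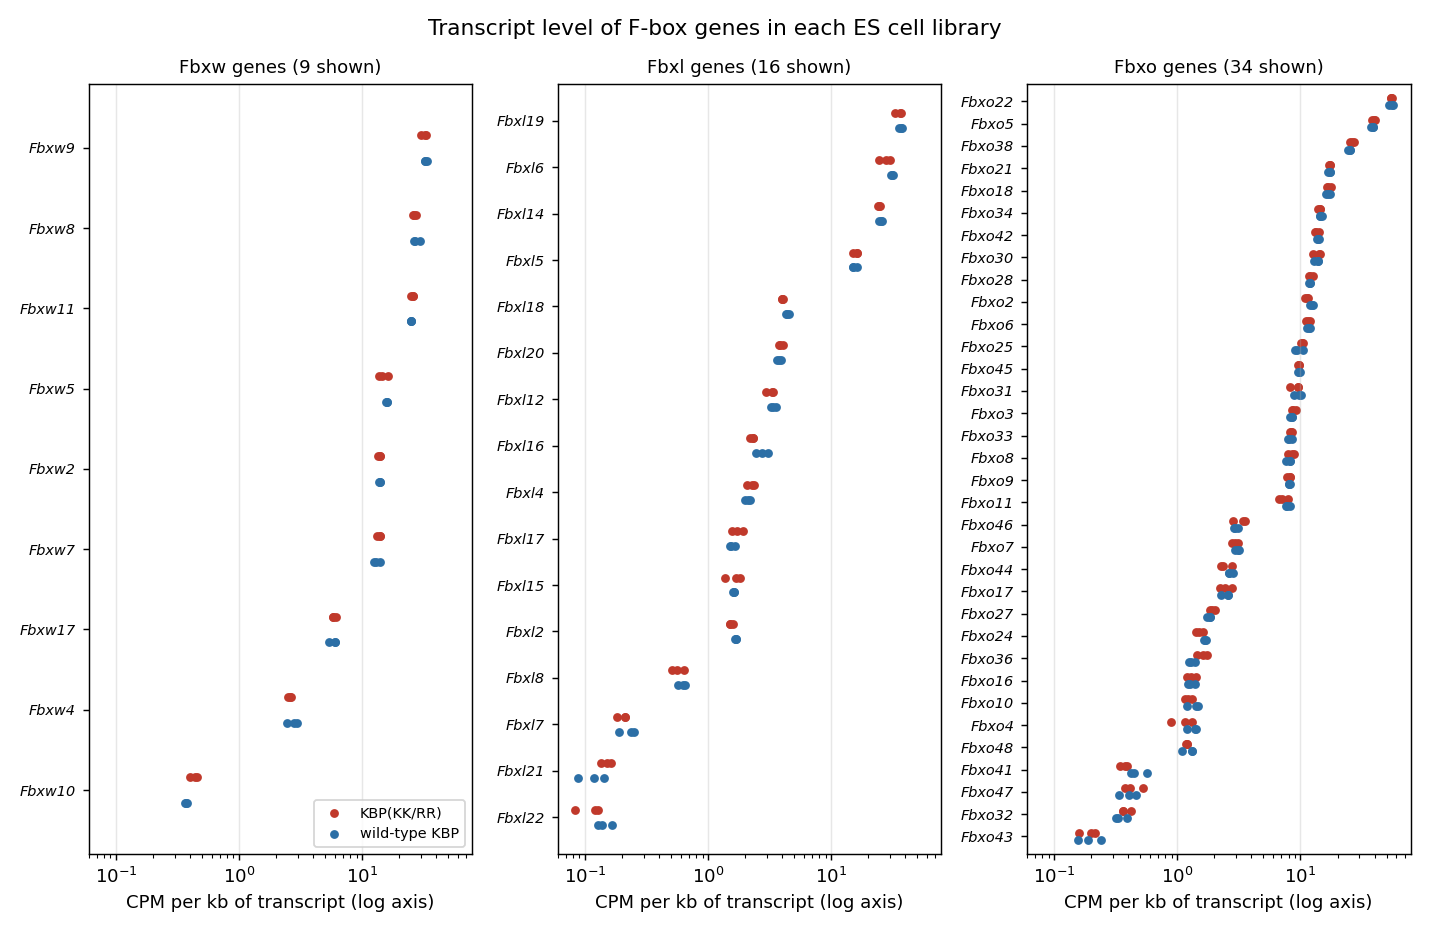
Level of 59 of the 60 tested F-box genes, in CPM per kb of the longest transcript on a log axis, with 1 point per library (red, KBP(KK/RR); blue, wild-type KBP) and genes ordered by mean within the Fbxw, Fbxl and Fbxo families. The genes spread from 54.7 CPM per kb for Fbxo22 to 0.13 CPM per kb for Fbxl22, while the 6 points of most genes lie close together.

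Genes of the Fbxo proteins with an F-box-associated domain, among them Fbxo2 and Fbxo6, which recognise sugar chains on misfolded glycoproteins, sit in 2 small clusters. On chromosome 4, Fbxo6, Fbxo44 and Fbxo2 lie side by side within chr4:148145716-148166420. Their levels were 11.6 ± 0.33, 2.57 ± 0.24 and 11.8 ± 0.66 CPM per kb, so the middle gene of the row stood well below both of its neighbours. On chromosome 7, the neighbours Fbxo27 and Fbxo17 had 1.87 ± 0.10 and 2.48 ± 0.21 CPM per kb. None of the 5 passed the test between groups, and the log2 fold changes ran from -0.14 for Fbxo44 to 0.097 for Fbxo27.

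The cluster on chromosome 9 gave almost no counts. Its counted symbols are 12 Fbxw genes (Fbxw13, Fbxw14, Fbxw15, Fbxw16, Fbxw18, Fbxw19, Fbxw20, Fbxw21, Fbxw22, Fbxw24, Fbxw26 and Fbxw28). They lie within 606.6 kb, at chr9:109139454-109746089. Of these, 9 had 0 counts in all 6 libraries and 3 had 1 count each: Fbxw13 and Fbxw24 in KBP(KK/RR) replicate 5 and Fbxw26 in wild-type KBP replicate 1. A count of 0 allows a level of up to 0.101, 0.122 and 0.101 CPM in KBP(KK/RR) replicates 4, 5 and 6, and of up to 0.115, 0.0935 and 0.125 CPM in wild-type KBP replicates 1, 2 and 3. Over all 6 libraries it allows up to 0.018 CPM, and these limits cover counting error only. Fbxw15 of this cluster is known from mouse oocytes.

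Copies in the cluster could take reads from each other, because a read that matches several genes may go uncounted. Of the 50-base stretches of a cluster gene's transcripts, a median of 89.8% occurred in no other gene's transcripts, with 32.4% for Fbxw14, 34.0% for Fbxw28 and 98.3% for Fbxw19. Some of the shared stretches occurred in transcripts of Fbxw23, Fbxw25 and Fbxw27, which are not among the counted symbols. Fbxw19 had 0 counts with nearly all of its sequence unique. For the other 63 F-box genes the median was 100% and the lowest value was 55.8%, for Fbxl12. Genes around the cluster were mixed in level. Spink8 and Camp had 7 and 3 counts in all, whereas Nme6, which lies between them, had 25.3 CPM in KBP(KK/RR) cells and 24.1 CPM in wild-type KBP cells. Cdc25a, further out on the same side, had 140 CPM in KBP(KK/RR) cells and 134 CPM in wild-type KBP cells. Plxnb1, on the other side of the cluster, had 55.8 CPM in KBP(KK/RR) cells and 62.4 CPM in wild-type KBP cells.

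The other 3 untested genes had a few counts each over the 6 libraries: 10 for Fbxl13, 18 for Fbxo39 and 25 for Fbxo40. Fbxo40 is known from skeletal muscle.

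Across the whole set, CG pairs upstream of the start went with level only coarsely. A RefSeq window was given for 58 of the 75 genes. Among the 45 tested genes with a window the median was 15 CG pairs in 250 bases (range 1 to 47). Of these, 38 had at least 10, against 38.2% of all 27025 genes with a window. That background was not limited to genes with enough counts to be tested, so it is not a like one for the 45. Among the 10 cluster genes with a window the median was 1 (range 0 to 4), and 9 of them had at most 2, against 29.6% of all genes. The 3 untested genes outside the cluster did not follow that division, since Fbxl13 and Fbxo39 had few counts but 17 and 15 CG pairs, and Fbxo40 had 2. Pairs of the 10 cluster windows were identical at a median of 83.2% of alignment positions, gaps included, over 45 pairs. A motif search was made only for the letters CG, which read the same on both strands, and says nothing of methylation, which was not measured.

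Within the tested genes the relation was weak. Of the 17 with at least 10 CPM per kb, 16 had at least 10 CG pairs, and Fbxo6 had 2. Of the 5 below 1 CPM per kb, 3 had at least 10 CG pairs. Over the 45 genes, Spearman's rho between CG pairs and level was 0.31, given as a description across genes that share the same 6 libraries.

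**Figure D2:**
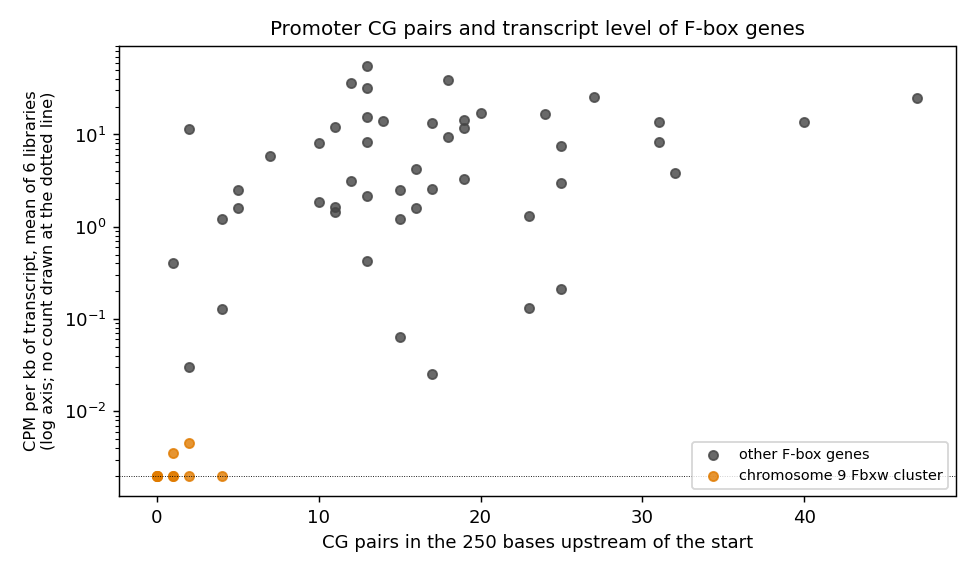
Level in CPM per kb (mean of 6 libraries, log axis) against the number of CG pairs in the 250 bases upstream of the start, for the 58 F-box genes with a RefSeq window; genes with no count are drawn at the dotted line. The 10 cluster genes (orange) have 0 to 4 CG pairs and sit at or near the line, and the other genes (dark) spread over 1 to 47 CG pairs among those tested.

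No F-box receptor gene passed the test between KBP(KK/RR) and wild-type KBP cells: 0 of the 60 tested genes were higher and 0 were lower at an adjusted p under 0.05. Among all 14340 tested genes 448 passed, or 3.12%, with 151 higher (1.05%) and 297 lower (2.07%), a split that became 235 higher and 205 lower with upper-quartile scaling. Against so small a background share, a count of 0 in 60 genes does not set the receptors apart. At an unadjusted p under 0.05 there were 4 F-box genes, all with a negative fold change, or 6.67% against 18.6% of all genes (8.32% higher and 10.3% lower). DESeq2 called 0 of the 47 F-box genes to which it gave an adjusted p, Fbxo41 not among them, and gave 3 with an unadjusted p under 0.05. The RNA came from bulk cultures, in which fewer cells of a type and less RNA per cell cannot be told apart.

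The differences between groups were small. Log2 fold changes ran from -0.39 to 0.34, with 29 positive and 31 negative, and the median of -0.0047 was close to the median of -0.0022 over all genes. The 95% interval lay within 1.2-fold either way for 34 of the 60 genes, or 56.7%, against 56% of all genes, and within 1.5-fold for 51, or 85%, against 83.1%. Each interval covers 1 gene at a time. By family, the median was 0.0015 for Fbxw, -0.058 for Fbxl and 0.0067 for Fbxo genes.

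Deeper counting narrowed the intervals. Of the 36 F-box genes with a mean of at least 10 CPM, 33 had an interval within 1.2-fold, or 91.7%, against 83.3% of the 9093 genes at that level, and all 36 had one within 1.5-fold, against 98.6% of the genes. Among these 36 the log2 fold changes ran from -0.18 to 0.12, and the highest of the 6 libraries exceeded the lowest by a median factor of 1.11. The summed level of all 75 genes was 2033, 2026 and 2044 CPM in KBP(KK/RR) replicates 4, 5 and 6, against 2059, 2039 and 2052 CPM in wild-type KBP replicates 1, 2 and 3. These sums of the groups overlapped.

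**Figure D3:**
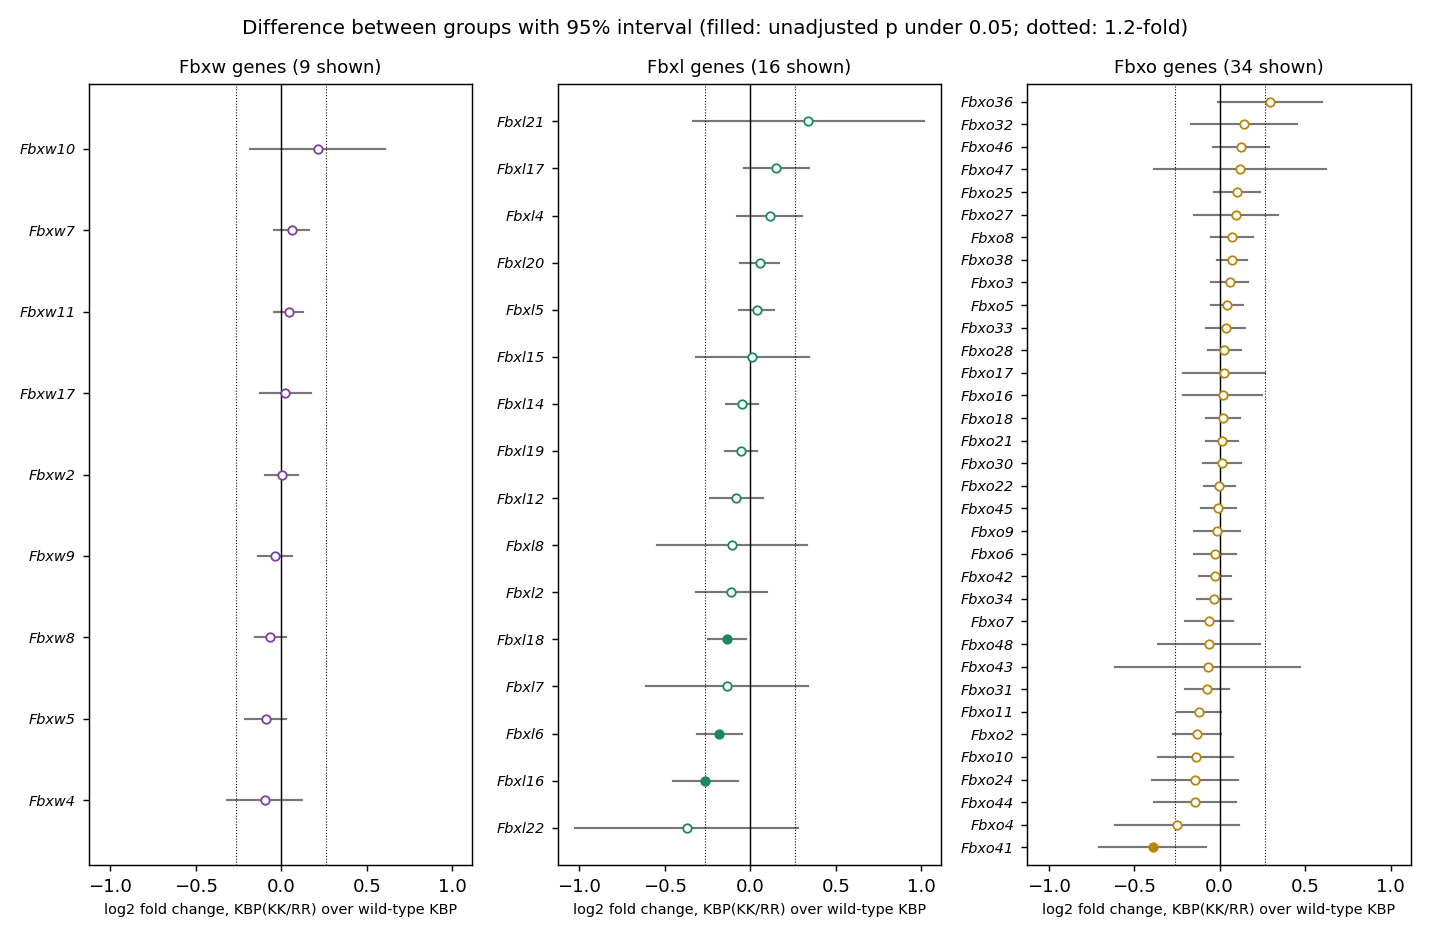
Log2 fold change of KBP(KK/RR) over wild-type KBP with its 95% interval for 59 of the 60 tested F-box genes, by family; filled points have an unadjusted p under 0.05 and dotted lines mark 1.2-fold. The filled points are Fbxl16, Fbxl6, Fbxo41 and Fbxl18, all below 0, and none of the 60 passed the adjusted test.

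Of the Fbxw genes, Fbxw7 had 62.1, 59.5 and 62.0 CPM in KBP(KK/RR) cells, against 62.3, 57.5 and 56.3 CPM in wild-type KBP cells. The groups overlapped, and the log2 fold change was 0.061 with a 95% interval of -0.041 to 0.16. For Fbxw11 the values were 104, 101 and 103 CPM in KBP(KK/RR) cells and 99.4, 100 and 99.6 CPM in wild-type KBP cells. All 3 KBP(KK/RR) libraries were above the others, by a log2 fold change of 0.042 (-0.044 to 0.13, adjusted p = 0.621). Fbxw9 had 70.2, 76.4 and 75.9 CPM in KBP(KK/RR) cells and 75.2, 75.0 and 77.9 CPM in wild-type KBP cells, a log2 fold change of -0.036 (-0.13 to 0.061).

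Fbxw8 differed by -0.064 (-0.16 to 0.029) and Fbxw5 by -0.091 (-0.21 to 0.028) on the log2 scale, with overlapping groups in both. Of the exonic bases of Fbxw8, 33.4% overlap a gene on the opposite strand, and the strand setting of the counting is not given, so reads of the 2 genes may be mixed. Such overlap also covers 21.4% of the exonic bases of Fbxw4, 15.4% of Fbxo22 and 11.2% of Fbxl2, among others. The Fbxw genes with the largest difference in each direction were both low in level. Fbxw10 averaged 1.45 ± 0.09 CPM in KBP(KK/RR) cells and 1.25 ± 0.03 CPM in wild-type KBP cells (SD, n = 3 each), a log2 fold change of 0.21 (-0.18 to 0.61). Fbxw4, the gene of the dactylaplasia limb mutant of the mouse, averaged 5.31 ± 0.16 CPM in KBP(KK/RR) cells and 5.64 ± 0.55 CPM in wild-type KBP cells, a log2 fold change of -0.096 (-0.32 to 0.12).

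Of the Fbxl genes, 3 of 17 had an unadjusted p under 0.05, or 17.6% against 18.6% of all genes. Fbxl6 (chr15:76535723-76538746) had 50.6, 63.0 and 58.3 CPM in KBP(KK/RR) cells, against 65.0, 66.1 and 63.6 CPM in wild-type KBP cells. The groups did not overlap, but KBP(KK/RR) replicate 5 came within 1 CPM of the lowest wild-type KBP library and the KBP(KK/RR) libraries spread more widely. The log2 fold change was -0.18 (SE 0.06, 95% interval -0.31 to -0.052, adjusted p = 0.123). Fbxl6 passed the test in 2 of the alternatives: with KBP(KK/RR) replicate 5 left out (log2 fold change -0.25, adjusted p = 0.0342) and with no filter on low counts (adjusted p = 0.0106). Without KBP(KK/RR) replicate 4, the lowest library, the log2 fold change shrank to -0.10 (adjusted p = 0.262). The adjusted p over all other alternatives ran from 0.0863 to 0.323.

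Fbxl16 (chr17:25808461-25821262) had 8.07, 8.12 and 7.64 CPM in KBP(KK/RR) cells, against 9.57, 8.57 and 10.6 CPM in wild-type KBP cells. All KBP(KK/RR) libraries were below the wild-type KBP libraries, which spread more widely, and the log2 fold change was -0.26 (SE 0.09, 95% interval -0.45 to -0.074, adjusted p = 0.121). Fbxl18 (chr5:142871789-142896721) had 31.2, 31.3 and 31.9 CPM in KBP(KK/RR) cells, against 33.6, 34.2 and 35.9 CPM in wild-type KBP cells. Its groups did not overlap either, and the log2 fold change was -0.14 (SE 0.05, 95% interval -0.25 to -0.025, adjusted p = 0.172). With the trend of transcript length and GC content removed, the value for Fbxl18 became 0.011 (adjusted p = 0.932).

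The other Fbxl genes that lead in level differed by little. Fbxl19 averaged 128 ± 7.39 CPM in KBP(KK/RR) cells and 133 ± 3.75 CPM in wild-type KBP cells, with a log2 fold change of -0.058 (-0.15 to 0.036). Fbxl14 gave -0.049 (-0.14 to 0.044) and Fbxl5 0.036 (-0.066 to 0.14). Fbxl2, whose product is anchored in membranes by a lipid, had 5.51, 5.23 and 5.22 CPM in KBP(KK/RR) cells and 5.78, 5.67 and 5.84 CPM in wild-type KBP cells. Its groups did not overlap, at a log2 fold change of -0.11 (-0.32 to 0.095, adjusted p = 0.578).

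Fbxl20, known for the synaptic protein RIM1 as a substrate, had 35.0, 33.1 and 32.2 CPM in KBP(KK/RR) cells and 30.9, 32.5 and 33.3 CPM in wild-type KBP cells. The groups overlapped and the log2 fold change was 0.053 (adjusted p = 0.647), but with the length and GC trend removed it was 0.16 (adjusted p = 0.0374), the one F-box gene called in that alternative. The largest Fbxl values belonged to the genes with the fewest counts: 0.34 for Fbxl21 (-0.34 to 1.01) and -0.37 for Fbxl22 (-1.03 to 0.28), both with overlapping groups.

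Of the Fbxo genes, 1 of 34 had an unadjusted p under 0.05, or 2.94% against 18.6% of all genes. Fbxo41 (chr6:85469574-85502994) had 2.25, 2.57 and 2.46 CPM in KBP(KK/RR) cells, against 2.91, 3.74 and 2.75 CPM in wild-type KBP cells. The KBP(KK/RR) libraries were all below the others, and wild-type KBP replicate 2 was the highest of the 6. The log2 fold change was -0.39 (SE 0.15, 95% interval -0.70 to -0.080, adjusted p = 0.162), and it was -0.22 without wild-type KBP replicate 2 (adjusted p = 0.613). Of the neural markers, 6 were tested and 4 had a log2 fold change above 0. The test called 1 of the 6, or 16.7% against 3.12% of all genes. Ncam1 fell (46.9 CPM in KBP(KK/RR) cells and 54.6 CPM in wild-type KBP cells, adjusted p = 0.0185), while Map2 had a log2 fold change of 0.24 without overlap (adjusted p = 0.130). The summed level of the list ran from 207 to 214 CPM in KBP(KK/RR) libraries and from 211 to 216 CPM in wild-type KBP libraries. Their part in the values of Fbxo41 was not tested.

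**Figure D4:**
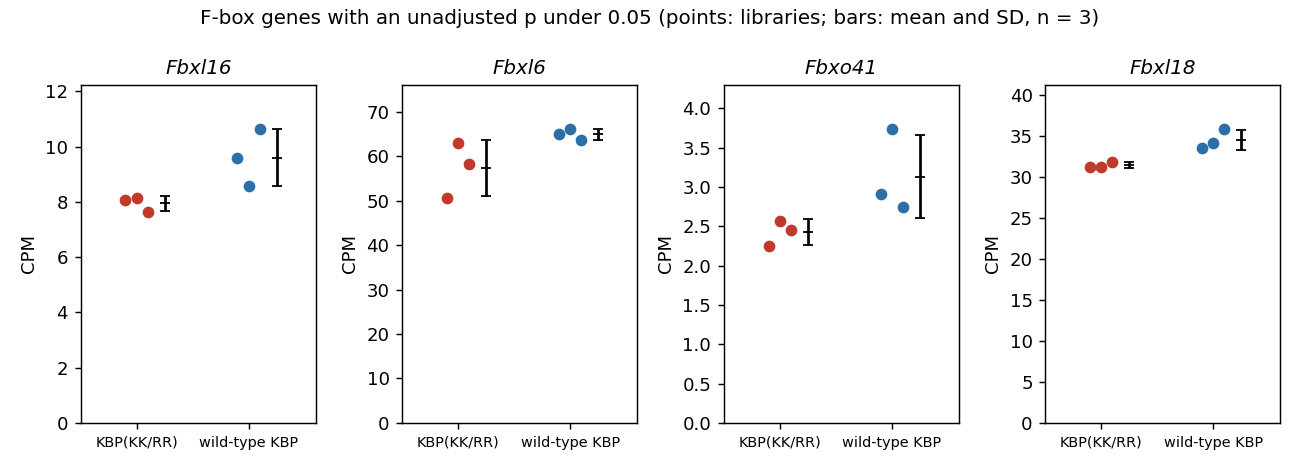
CPM in each library for the 4 F-box genes with an unadjusted p under 0.05, with the mean and SD of each group beside the points (n = 3). KBP(KK/RR) libraries lie below wild-type KBP libraries in all 4 genes, and the adjusted p ran from 0.121 for Fbxl16 to 0.172 for Fbxl18.

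The Fbxo genes at the top of the order gave small differences. Fbxo22 had 116, 115 and 116 CPM in KBP(KK/RR) cells and 119, 118 and 110 CPM in wild-type KBP cells, a log2 fold change of -0.00088 (-0.090 to 0.088). Fbxo5 had 78.8, 74.3 and 77.0 CPM in KBP(KK/RR) cells and 75.4, 75.2 and 72.8 CPM in wild-type KBP cells, a log2 fold change of 0.042 (-0.051 to 0.14). In both genes the groups overlapped and the interval excludes a change of 1.2-fold.

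Fbxo38 averaged 111 ± 3.97 CPM in KBP(KK/RR) cells and 106 ± 2.10 CPM in wild-type KBP cells, without overlap, a log2 fold change of 0.071 (-0.018 to 0.16, adjusted p = 0.391). Fbxo21, known for the transcriptional regulator EID1 as a substrate, differed by 0.016 (-0.077 to 0.11). Fbxo11 had 31.6, 27.1 and 28.7 CPM in KBP(KK/RR) cells and 30.7, 33.3 and 31.0 CPM in wild-type KBP cells. Only KBP(KK/RR) replicate 4 reached the range of the wild-type KBP libraries, at a log2 fold change of -0.12 (-0.25 to 0.0066, adjusted p = 0.297). The value rested on single libraries: it was -0.18 without KBP(KK/RR) replicate 4 (adjusted p = 0.0806), -0.074 without KBP(KK/RR) replicate 5 (adjusted p = 0.600) and -0.077 without wild-type KBP replicate 2 (adjusted p = 0.687).

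Fbxo31 gave a log2 fold change of -0.073 (-0.20 to 0.055), Fbxo7 of -0.062 (-0.20 to 0.081) and Fbxo4 of -0.25 (-0.61 to 0.12), all with overlapping groups. The largest positive value in this family was that of Fbxo36, with 2.76, 2.49 and 2.96 CPM in KBP(KK/RR) cells and 2.37, 2.15 and 2.21 CPM in wild-type KBP cells. Its groups did not overlap, and the log2 fold change was 0.29 (-0.011 to 0.60, adjusted p = 0.288).

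In all, the groups did not overlap in 11 of the 60 genes, or 18.3%, against 22.4% of all genes. KBP(KK/RR) was higher in Fbxw10, Fbxw11, Fbxo36 and Fbxo38, or 4 genes against a background of 11.8% of all genes. It was lower in Fbxl2, Fbxl6, Fbxl16, Fbxl18, Fbxo2, Fbxo24 and Fbxo41, or 7 genes against a background of 10.5%. The share of genes without overlap was therefore near the background.

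The signs of the small differences went with base composition. The transcripts of Fbxl16, Fbxl6, Fbxo41 and Fbxl18 had 59.0%, 59.7%, 59.1% and 56.5% GC. Of the 18 F-box genes with at least 55% GC, 16 had a negative log2 fold change, or 88.9%, with a median of -0.10. Of the 42 below 55%, 15 were negative, or 35.7%, with a median of 0.021. Over all genes the same shares were 63.8% of 3394 and 46.6% of 10810, so the split was present in the whole table and wider among the F-box genes, a difference that was not tested.

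Over the 60 F-box genes, Pearson's r between GC content and log2 fold change was -0.47 and Spearman's rho -0.54, against -0.10 and -0.16 over 14204 genes. These describe genes that share the same 6 libraries. With single libraries left out, r ran from -0.55 to -0.26. With the trend of length and GC content over all genes removed, r was -0.25, and 11 of the 18 and 17 of the 42 were negative. The count-weighted GC content of the libraries was 49.2%, 49.5% and 49.4% in KBP(KK/RR) cells and 49.4%, 49.4% and 49.5% in wild-type KBP cells, which overlap, and the part of library composition in the signs was not tested.

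**Figure D5:**
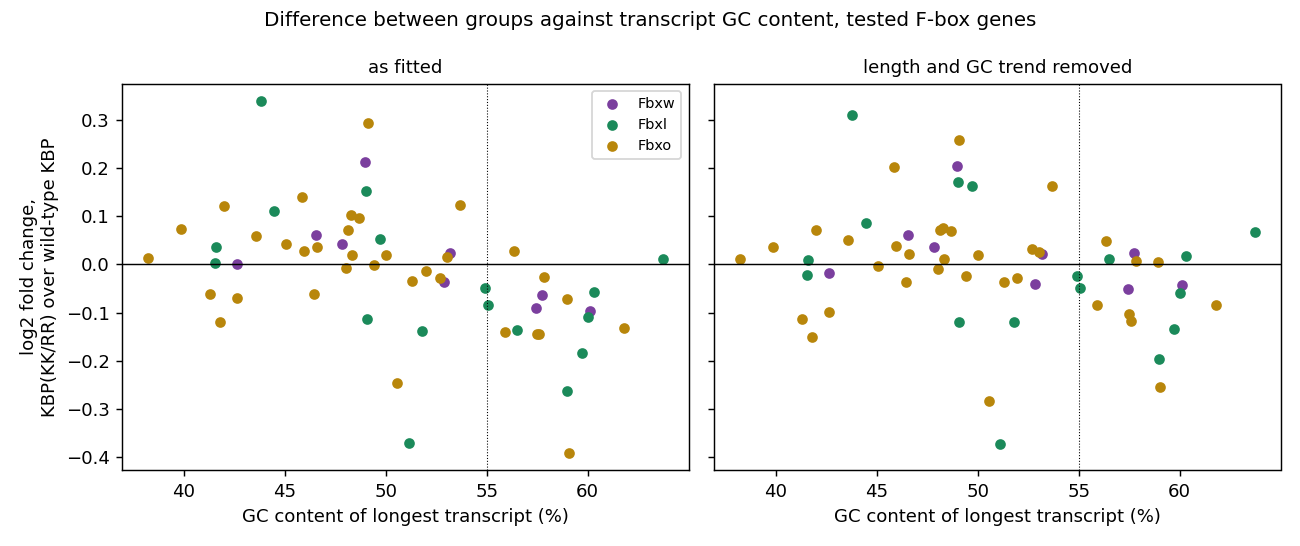
Log2 fold change of KBP(KK/RR) over wild-type KBP against the GC content of the longest transcript for the 60 tested F-box genes, coloured by family, as fitted (left) and with the length and GC trend of all genes removed (right); the dotted line marks 55% GC. Right of that line 16 of 18 points lie below 0 as fitted and 11 of 18 with the trend removed.

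Among genes of the cullin ligase machinery around the receptors, 2 passed the test. Of 37 listed symbols for the core, the neddylation enzymes, the COP9 signalosome and the ubiquitin enzymes, 35 were in the table and tested. The others, Skp1 and Ube2d2, are second names of Skp1a and Ube2d2a. Of the 35 genes, 2 were called higher and 0 lower, or 5.71% against 3.12% of all genes. Skp1a, the adaptor to which every receptor docks, had 334, 311 and 333 CPM in KBP(KK/RR) cells, against 292, 282 and 267 CPM in wild-type KBP cells, without overlap, and rose by a log2 fold change of 0.22 (SE 0.04, adjusted p = 0.00545). Cops5, the signalosome subunit that removes NEDD8 from cullins, had 135, 140 and 146 CPM in KBP(KK/RR) cells, against 127, 127 and 121 CPM in wild-type KBP cells, and rose by 0.16 (SE 0.04, adjusted p = 0.0372). Leaving out KBP(KK/RR) replicate 6 ended both calls (adjusted p = 0.0608 for Skp1a and 0.227 for Cops5). Cops5 also missed the threshold without KBP(KK/RR) replicate 5 or any 1 of the wild-type KBP libraries, with adjusted p from 0.0565 to 0.127.

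Of these 35 genes, 29 had a log2 fold change above 0, against 7058 of all 14340 tested genes. The median log2 fold change was 0.059, against -0.0022 over all genes. Cul1 had a log2 fold change of 0.057 (adjusted p = 0.442), Rbx1 of 0.075 (adjusted p = 0.411) and Rnf7, the relative of Rbx1 that serves CUL5, of 0.12 (adjusted p = 0.125). Under the alternatives the number of positive genes stayed between 28 and 33. The 33 came with upper-quartile scaling, under which 7911 of all 14340 genes were positive. The log2 fold changes of the 7 other cullins ran from -0.060 for Cul7, the partner of Fbxw8, to 0.083 for Cul4b (adjusted p = 0.302), with 0.061 for Cul5 (adjusted p = 0.472).

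Set against the receptors per length, the adaptor was abundant. Skp1a had 190, 177 and 190 CPM per kb in KBP(KK/RR) cells and 167, 161 and 152 CPM per kb in wild-type KBP cells. The 60 tested receptors summed to 591, 594 and 597 CPM per kb in KBP(KK/RR) cells and 604, 598 and 600 CPM per kb in wild-type KBP cells. Unlike the summed CPM, these sums per length did not overlap, and all 3 of KBP(KK/RR) were lower. The gap was narrow: KBP(KK/RR) replicate 6 had 597.2 and wild-type KBP replicate 2 had 598.2 CPM per kb. The highest gene of the symbol rule, Fbxo22, thus stood below Skp1a and also below Cul1. Cul1 had 74.1, 73.2 and 73.5 CPM per kb in KBP(KK/RR) cells and 72.0, 70.7 and 69.4 CPM per kb in wild-type KBP cells. Ccnf, an F-box gene outside the symbol rule, had a mean of 87.8 CPM per kb over all libraries, above both Fbxo22 and Cul1. These are transcript levels, and proteins were not measured.

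F-box genes that the symbol rule does not reach also gave no call. Of 9 such genes 8 were tested, 0 were called, and 0 had an unadjusted p under 0.05. Skp2, the receptor for the inhibitor p27, had a log2 fold change of 0.047 (adjusted p = 0.586), Btrc, the other beta-TrCP gene, of 0.012 (adjusted p = 0.933) and Ccnf, cyclin F, of -0.024 (adjusted p = 0.791). Kdm2a, a histone demethylase with an F-box, gave -0.089 (adjusted p = 0.277), Lrrc29 -0.28 (adjusted p = 0.470) and Nccrp1 -0.28 (adjusted p = 0.574).

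Transcripts of known SCF substrates were counted as well. Of 40 genes, 1 rose and 1 fell, or 5% against 3.12% of all genes, and the median log2 fold change was 0.018. Mycn, whose protein is a substrate of FBXW7, averaged 280 ± 13.3 CPM in KBP(KK/RR) cells and 251 ± 7.27 CPM in wild-type KBP cells (SD, n = 3 each), a log2 fold change of 0.16 (adjusted p = 0.0379). It missed the threshold without KBP(KK/RR) replicate 5 or 6 or wild-type KBP replicate 1 or 2, with adjusted p from 0.0589 to 0.260. Klf5, also a substrate of FBXW7, averaged 115 ± 3.78 CPM in KBP(KK/RR) cells and 134 ± 5.52 CPM in wild-type KBP cells, and fell by 0.21 on the log2 scale (adjusted p = 0.00844). Mcl1, another FBXW7 substrate, gave 0.098 (adjusted p = 0.162). All are transcripts, and Fbxw7 itself did not pass the test. The levels of primitive endoderm markers moved beside them: of 9 tested, Pdgfra, Col4a1 and Col4a2 fell, or 33.3% against 3.12% of all genes. The summed level of the list ran from 287 to 339 CPM in KBP(KK/RR) libraries and from 363 to 442 CPM in wild-type KBP libraries. Much of that sum was Lama1, which averaged 161 CPM in KBP(KK/RR) cells and 227 CPM in wild-type KBP cells and did not pass (adjusted p = 0.169). Of 7 tested trophectoderm markers, 5 had a log2 fold change above 0 and Tfap2c rose (44.2 CPM in KBP(KK/RR) cells and 35.1 CPM in wild-type KBP cells, adjusted p = 0.0014). This call was 14.3% of the 7, against 3.12% of all genes. That list summed to between 100.1 and 104 CPM in KBP(KK/RR) libraries and to between 90.9 and 99.2 CPM in wild-type KBP libraries. The part of both lists in these values was not tested.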

How the data were processed

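RNA was measured in 6 libraries, 3 for each group. Ribosomal RNA was removed from total RNA with RiboZero before ScriptSeq v2 library preparation, per the labels' protocols. The submitters' processing notes name bcl2fastq, TopHat, HTSeq, DESeq2, mm10 and GRCm38. For annotation, strand and filters, details were not given in the sources used here. Raw counts per gene symbol and a normalized signal were deposited by the authors. Dividing out 1 factor per library returned 100% of the values above 0 in that signal as whole reads within 0.01, and 0 of them differed from the raw counts.

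Raw counts were tested over all 23420 symbols with edgeR 4.0.16 under R 4.3.3: filterByExpr (14340 genes kept), TMM scaling, a robust quasi-likelihood fit with group as the term, and Benjamini-Hochberg adjustment, called under 0.05. Fold changes are log2, KBP(KK/RR) over wild-type KBP, and CPM uses the TMM-scaled totals. Library totals ran from 24131743 to 32160411 counts, and replicates of a group differed by more than counting noise (chi-square per degree of freedom 2.70 to 7.17). The fit was tested on simulated data. The longest GENCODE M21 transcript of a gene gave its length and GC content, and promoters and coordinates from RefSeq on GRCm38.p6, in which 21571 symbols matched directly and 1663 by an older name. The 50 transcribed bases of each promoter window were not used.

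Named genes were those with p under 0.05 before or after adjustment, the 4 highest per family by CPM per kb, the largest difference in each direction per family, genes with 0 counts, well-known receptors, and from the lists of ligase machinery, other F-box genes, substrates and other cullins the called genes and up to 3 with the smallest p. Genes outside these rules, such as Fbxo43, the Fbxo2 family, other receptors and marker genes, were picked for their known roles or after their values were seen. One tested gene is counted in the totals but not reported here by name. The members, the lists and the tests were chosen with earlier results of these data known. Alternatives were DESeq2 1.42.0, limma 3.58.1 (voom and trend with a pseudocount of 1), other scalings, filters and thresholds, removal of a length and GC trend by splines with 5 degrees of freedom, each library left out in turn, and, added after seeing the data, the recovered reads.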

Additional observations from a re-analysis of the deposited data

How the results depend on the processing

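Over the alternatives, the count of F-box genes called higher was 0 except with the length and GC trend removed, where it was 1 (Fbxl20), and the count called lower was 0 except with no filter on low counts, where it was 1 (Fbxl6), and with KBP(KK/RR) replicate 5 left out, giving a range of 0 to 1 over left-out libraries. All genes called were 966 with no filter, 130 at an adjusted p under 0.01 and 823 under 0.1, and 122 (without KBP(KK/RR) replicate 6) to 767 (without KBP(KK/RR) replicate 4) over left-out libraries. Ligase machinery genes called were 1 at 0.01 and 0 to 2 over left-out libraries, and substrate genes 4 with no filter, 1 at 0.01 and 1 to 3 over left-out libraries. The causes were not tested. No paired analysis was possible because the replicate numbers of the groups, 4 to 6 and 1 to 3, are not shared. Intervals were wider at low counts: all 36 F-box genes with at least 10 CPM had an interval within 1.5-fold, and 51 of all 60.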
